A study of Arabidopsis thaliana with 4 samples.

Results

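The genes described here are 9 transcription factor genes of Arabidopsis thaliana that are cut by microRNAs, out of 33557 loci in the expression files. They were chosen by locus: 6 NAC genes targeted by miR164, which are CUC1 (AT3G15170), CUC2 (AT5G53950), NAC1 (AT1G56010), ORE1 (AT5G39610), NAC100 (AT5G61430) and NAC080 (AT5G07680), and 3 GRAS genes of the HAIRY MERISTEM group targeted by miR171, which are HAM1 (AT2G45160), HAM2 (AT3G60630) and HAM3 (AT4G00150). Transcript levels were measured by RNA sequencing in whole 14-day-old seedlings of mos2-2, a T-DNA insertion line, and of the wild type Col-0, the background of all lines, with 2 libraries each, both grown in 16 h of light and 8 h of dark. Nothing in the labels tells whether a genotype's libraries were separate cultures, and p-values therefore cover the spread between libraries alone, which may be technical. Levels are FPKM, fragment numbers scaled to transcript length and to the mapped fragments of the library, and so can be compared between genes.

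MicroRNAs are short RNAs cut out of hairpin precursors, and in plants they guide the slicer ARGONAUTE1 to nearly complementary sites in messenger RNAs. MOS2 binds RNA and is tied by the study to microRNA maturation, so the comparison asks whether target transcripts differ in its mutant. miR164 keeps NAC transcripts low: CUC1 and CUC2 set the boundaries between organs, NAC1 acts in auxin-dependent lateral root formation, and ORE1 promotes leaf ageing downstream of ethylene. miR171 keeps HAM transcripts low, and HAM proteins maintain the shoot meristem together with the homeodomain protein WUS.

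The mature microRNAs are shown first, because the sites in the members can be read against them. They were read from the TAIR10.1 genome at the positions annotated by RefSeq, are written as RNA from 5′ to 3′, and have the seed, bases 2 to 8, in capitals.
miR164a: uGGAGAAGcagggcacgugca
miR164c-5p: uGGAGAAGcagggcacgugcg
miR170-3p: uGAUUGAGccgugucaauauc
miR171a-3p: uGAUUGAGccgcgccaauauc
miR171b-3p: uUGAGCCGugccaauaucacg
miR164b-5p has the sequence of miR164a, and miR171c-3p that of miR171b-3p. The miR164 forms share the seed GGAGAAG. miR170-3p and miR171a-3p share the seed GAUUGAG, while miR171b-3p and miR171c-3p have the seed UGAGCCG.

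The best match to these microRNAs in each member is given next, on the transcript's strand, with every base that does not pair by Watson-Crick rules in capitals, so that lower case marks the paired bases. G-U pairs were counted as mismatches.
CUC1 site: AgcacgugUccugUuucucca
CUC2 site: AgcacgugUccugUuucucca
NAC1 site: AgcacguAcccugcuucucca
ORE1 site: cUcacgugAccugcuucuccG
NAC100 site: uCUacgugcccugcuucucca
NAC080 site: uUUacgugcccugcuucucca
HAM1, HAM2 and HAM3 site: gauauuggcgcggcucaauca
The 3 HAM genes carried the same site, with 0 mismatches to miR171a-3p. The CUC1 and CUC2 sites were identical, while the other NAC sites differed from them and from one another. NAC1, NAC100 and NAC080 had 2 mismatches to miR164a, CUC1 and CUC2 had 3 to miR164a, and ORE1 had 3 to miR164c-5p. None of the 9 sites had a mismatch opposite bases 10 and 11 of the microRNA, between which plant slicing takes place.

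A match with at most 5 mismatches was counted as a site. Among 27440 protein-coding genes, this limit gave 87 genes for miR164 and 156 for miR170 and miR171, so it does not single out the members. At the stricter limit, 7 had a transcript with at most 3 mismatches to miR164, namely the 6 NAC members and a further NAC gene, AT3G12977. For miR170 and miR171 the stricter limit gave 3 genes, the HAM members. Family members with no match at the stricter limit served for comparison. CUC3, a boundary gene with a role like that of CUC1 and CUC2, had 8 mismatches at its best position, of which 2 lay opposite bases 10 and 11, and HAM4 had 5, just inside the wider limit.
AT3G12977 best match: AgcaUguAcccugcuucucca
CUC3 best match: cAcaUgCUAcUAgAuucucca
HAM4 best match: gGuUuuAUcacggcuUaauca

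All 9 sites lay wholly in coding sequence. In the 6 NAC genes the site was in exon 3 of 3, between 63.5% and 74.8% of the way through the coding sequence. The HAM transcripts have 1 exon, and their sites lay between 40.8% and 46.5%. In TAIR10.1 coordinates, the CUC1 site is at chr3:5111137-5111157 on the plus strand and the CUC2 site at chr5:21902301-21902321 on the minus strand. The ORE1 site is at chr5:15858797-15858817, the NAC1 site at chr1:20947142-20947162 and the NAC100 site at chr5:24701687-24701707, all on the minus strand. The NAC080 site is at chr5:2436958-2436978 on the plus strand. The HAM1 site is at chr2:18619128-18619148, the HAM2 site at chr3:22411544-22411564 and the HAM3 site at chr4:58411-58431, all on the minus strand. NAC1, NAC100 and NAC080 have 2 annotated transcripts each, and both carry the site, so no annotated form of these genes lacks it.

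**Figure D1:**
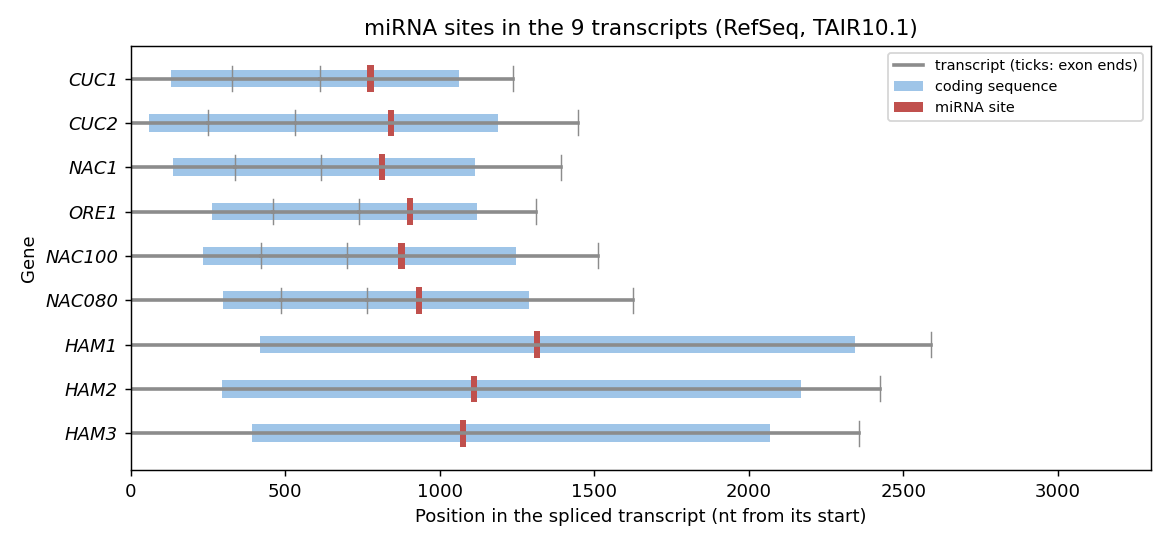
Position of the microRNA site (red) in the coding sequence (light blue) of each member's spliced transcript (grey line, ticks at exon ends), in nt from the transcript start. The NAC sites sit in the last exon, between 63.5% and 74.8% of the coding sequence, and the HAM sites between 40.8% and 46.5%.

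Reads from stretches shared by several genes are hard to assign, so the members were compared in sequence within each family. CUC3, HAM4 and AT3G12977 were included, but other relatives were not, and the shared runs were not set against the read length. The closest pair was NAC100 and NAC080, with 82.5% identity over the coding sequence and a longest identical run of 37 nt, followed by HAM1 and HAM2, with 71.0% and 38 nt. Every other pair of members in a family shared a run of at most 24 nt. How reads with several matches were counted is not given in the sources used here, so reads of the closest pairs may have been divided, to an unknown extent. NAC1 is overlapped from the opposite strand by AT1G56000, over 148 bp, and by the long non-coding RNA gene AT1G08087, over 809 bp, for which no FPKM value was used here. Without a stated strand setting, reads of these stretches cannot be told apart, so the NAC1 level is uncertain.

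MOS2, the targeted gene, was low in both libraries labelled mos2-2. It stood at 2.16 and 1.16 FPKM in mos2-2, against 50.3 and 36.9 FPKM in Col-0. The depth of the libraries was estimated from the smallest steps between low values: 1 read in a transcript of 1 kilobase was worth 0.157 and 0.153 FPKM in mos2-2 and 0.25 and 0.158 FPKM in Col-0, so Col-0 replicate 1 was the shallowest library. Leaf markers were by far the highest of the organ markers, and root and flower markers were present at lower levels. RBCS1A and LHCB1.3 of leaves ran from 8450 to 20580 FPKM over the 4 libraries, and all 4 root markers were above 0 in every library. WOX5 was the lowest root marker, at 0.226 FPKM in mos2-2 replicate 2 and 0.234 FPKM in Col-0 replicate 2. Both seed storage genes were listed at 0 throughout. The flower genes AP3, PI and AG were present, with sums of 4.16 and 20.3 FPKM in mos2-2 and 29.8 and 9.23 FPKM in Col-0. Of the shoot meristem markers, STM stood at 3.52 and 12.1 FPKM in mos2-2 and 13.3 and 11.7 FPKM in Col-0, WUS was listed at 0 in mos2-2 replicate 1 and Col-0 replicate 2, and CLV3 was listed at 0 in all but mos2-2 replicate 1. In such bulk samples fewer cells of a type and less RNA per cell cannot be told apart.

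Of the 9 members, 7 and 9 were above 0 FPKM in the mos2-2 libraries and 8 and 8 in the Col-0 libraries, and 5 of them lay well above the other 4 in level. ORE1 had the highest mean level over the 4 libraries at 17.1 FPKM, followed by HAM1 at 9.28, NAC1 at 8.84, HAM2 at 6.54 and HAM3 at 5.29 FPKM. The ranges of these neighbours over the libraries overlapped, so their order is not fixed beyond their spread. NAC080 followed at 1.41 FPKM, and its highest library lay below the lowest library of HAM3. NAC100 at 0.787 FPKM, CUC2 at 0.151 FPKM and CUC1 at 0.122 FPKM came last, again with overlapping ranges between neighbours.

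**Figure D2:**
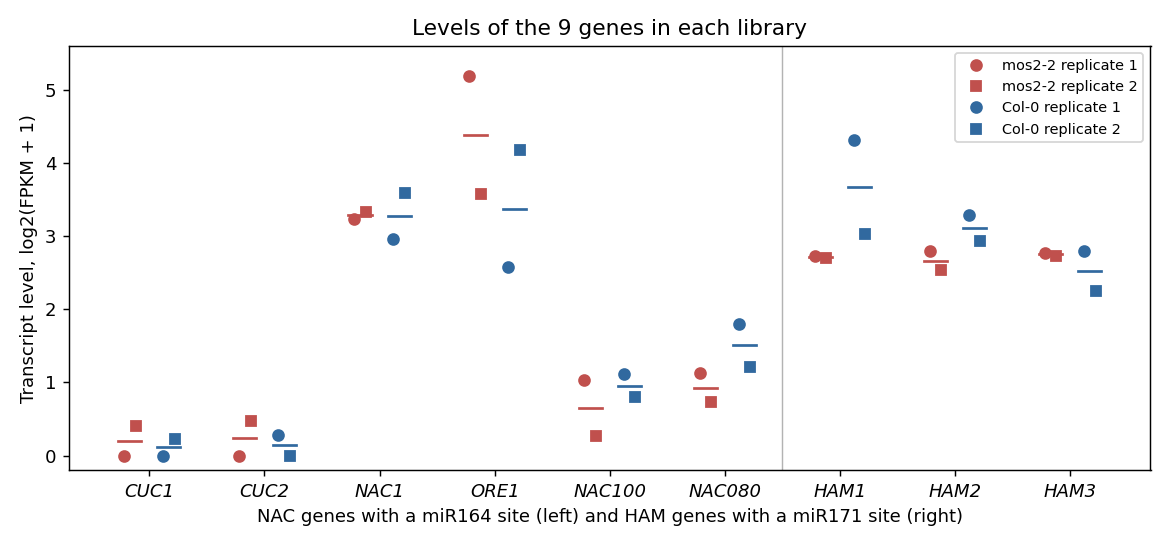
Transcript level of each member as log2(FPKM + 1) in mos2-2 (red) and Col-0 (blue), with circles for replicate 1, squares for replicate 2 and bars for the mean of 2 libraries. ORE1 is widely spread in both genotypes, HAM1 and HAM2 are lower in both mos2-2 libraries than in both Col-0 libraries, and CUC1 and CUC2 lie near 0.

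Genotypes were compared with limma on log2(FPKM + 1) over the 19236 genes whose mean level reached 1 FPKM. None of the members passed the Benjamini-Hochberg adjusted p threshold of 0.05 in limma, where 0.0624% of all genes tested did, 0.052% higher and 0.0104% lower in mos2-2. 6 of the 9 members could be tested, 3 higher and 3 lower in mos2-2, with limma adjusted p values between 0.761 and 0.996. Their median log2 difference was -0.22, beside -0.09 over all genes tested. At an unadjusted limma p under 0.05 the count was 0 of 6, against 7.02% of all genes. CUC1, CUC2 and NAC100 had means under 1 FPKM and are given as values without a test.

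CUC1 and CUC2, the boundary genes, were at the limit of detection in both genotypes. CUC1 was listed at 0 and stood at 0.320 FPKM in the mos2-2 libraries, and was listed at 0 and stood at 0.166 FPKM in the Col-0 libraries. By transcript length these values correspond to an estimated 2.59 reads in mos2-2 replicate 2 and 1.3 reads in Col-0 replicate 2. CUC2 was listed at 0 in mos2-2 replicate 1 and stood at 0.389 FPKM in mos2-2 replicate 2, an estimated 3.68 reads, against 0.214 FPKM in Col-0 replicate 1, an estimated 1.24 reads, and a listed 0 in Col-0 replicate 2. A difference in either gene was not detectable at this depth. CUC3, the boundary gene without a miR164 site, was also under 1 FPKM but above 0 in every library, at 0.425 and 0.411 FPKM in mos2-2 and 0.678 and 0.142 FPKM in Col-0.

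NAC1, the auxin-responsive gene of lateral root formation, overlapped between genotypes. It stood at 8.42 and 9.09 FPKM in mos2-2 and at 6.79 and 11.05 FPKM in Col-0. The mos2-2 values lay between the Col-0 values. Its log2 difference was 0.01 with a standard error of 0.30, and the 95% interval of the limma fit ran from -0.76 to 0.78, with a limma adjusted p of 0.996.

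ORE1, the regulator of leaf ageing, had the largest difference among members that were higher in mos2-2 and also the widest spread. It stood at 35.6 and 10.9 FPKM in mos2-2 and at 4.97 and 17.1 FPKM in Col-0, with means of 23.3 ± 17.5 FPKM in mos2-2 and 11.02 ± 8.56 FPKM in Col-0 (SD, n = 2 each). The highest library was mos2-2 replicate 1 and the lowest Col-0 replicate 1, but mos2-2 replicate 2 lay below Col-0 replicate 2, so the genotypes overlapped. The log2 difference was 1.01 (SE 0.76, 95% interval -0.97 to 2.99), and the limma adjusted p was 0.814. The result rested on single libraries: it was 0.20 without mos2-2 replicate 1 and 0.21 without Col-0 replicate 1, and 1.82 without mos2-2 replicate 2 and 1.81 without Col-0 replicate 2.

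NAC100 and NAC080, a closely related pair of NAC genes, were low. NAC100 stood at 1.04 and 0.202 FPKM in mos2-2 and at 1.17 and 0.734 FPKM in Col-0, an estimated 2 to 10 reads per library. NAC080 stood at 1.18 and 0.664 FPKM in mos2-2 and at 2.49 and 1.31 FPKM in Col-0. Both NAC080 values in mos2-2 lay below both Col-0 values, on an estimated 7.06 to 16.2 reads. Its log2 difference was -0.58 (SE 0.39, 95% interval -1.59 to 0.43), with a limma adjusted p of 0.795, and the difference was -0.28 without Col-0 replicate 1 and -0.87 without Col-0 replicate 2. AT3G12977, the NAC gene outside the chosen set that also carries a miR164 site, was listed at 0 in both mos2-2 libraries and stood at 0.240 and 0.302 FPKM in Col-0. These Col-0 values rest on few reads, as 1 read in a transcript of 1 kilobase was worth 0.25 and 0.158 FPKM there. The gene averaged under 1 FPKM and is given without a test.

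HAM1 was lower in mos2-2 by the largest margin among the members tested, without passing the threshold. It stood at 5.63 and 5.51 FPKM in mos2-2 and at 18.8 and 7.13 FPKM in Col-0, 0.429-fold by mean FPKM. The mos2-2 libraries were nearly equal and lay below both Col-0 libraries, and Col-0 replicate 1 stood apart from the other libraries. The log2 difference was -0.95 (SE 0.47, 95% interval -2.16 to 0.26), with a limma adjusted p of 0.761. Without Col-0 replicate 1 it was -0.31, and without Col-0 replicate 2 it was -1.60. In Col-0 replicate 1, the shallowest library, the summed level of AP3, PI and AG was also at its highest, at 29.8 FPKM. The sum of the 3 shoot meristem markers was highest there too, at 13.5 FPKM against 3.93 to 12.3 FPKM in the other libraries. STM alone made up 13.3 FPKM of it. The next highest sums were in mos2-2 replicate 2, at 20.3 FPKM for flower and 12.3 FPKM for meristem markers. HAM1 stood at 5.51 FPKM in that library. All 3 flower markers were above 0 in every library, and the part of these markers and of depth in the HAM1 values was not tested.

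HAM2 followed HAM1 with a smaller difference. It stood at 5.94 and 4.78 FPKM in mos2-2 and at 8.78 and 6.66 FPKM in Col-0, again without overlap. The log2 difference was -0.45 (SE 0.26, 95% interval -1.13 to 0.23), with a limma adjusted p of 0.795. HAM3 did not share this order: it stood at 5.82 and 5.64 FPKM in mos2-2 and at 5.94 and 3.74 FPKM in Col-0, with a log2 difference of 0.23 (SE 0.29, 95% interval -0.51 to 0.97). HAM4, the group member with 5 mismatches to miR170-3p, stood at 6.97 and 6.02 FPKM in mos2-2 and at 8.96 and 7.47 FPKM in Col-0, with a log2 difference of -0.29 (SE 0.24) and a limma adjusted p of 0.822. Thus the HAM gene without a close site was also lower in mos2-2 without overlap, as were 24.7% of all genes tested. Whether HAM4 differed from HAM1 or HAM2 in this was not tested.

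**Figure D3:**
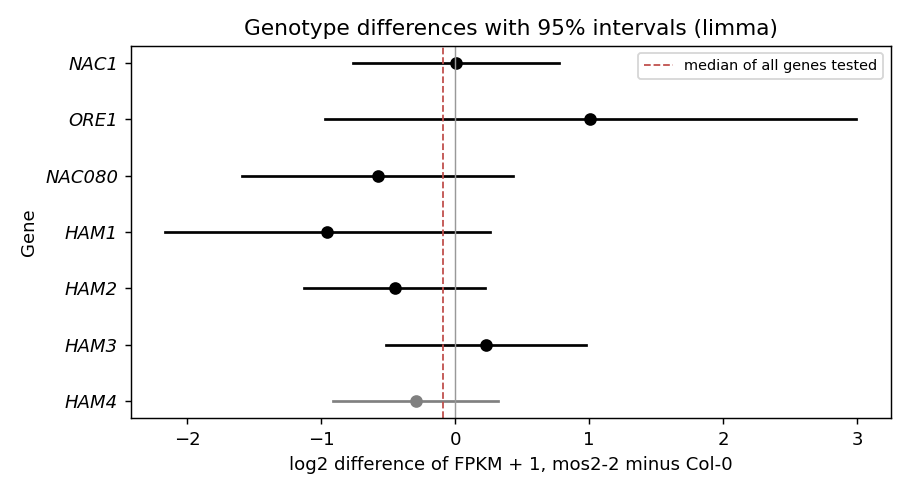
The log2 difference in FPKM + 1, mos2-2 minus Col-0, for the 6 members tested and, in grey, HAM4, with 95% intervals from limma. Every interval spans 0, from NAC1 at 0.01 to ORE1 at 1.01 and HAM1 at -0.95, and the dashed line at -0.09 is the median of all genes tested.

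Of the 6 members tested, 3 did not overlap between genotypes, NAC080, HAM1 and HAM2, all lower in mos2-2. Over all genes tested 37.8% did not overlap in either direction and 24.7% were lower and 13.1% higher without overlap, and in a set of 6 genes the count is given only as a description. The difference between genotypes exceeded the gap between replicates in both genotypes for 1 of the 6 members, or 16.7%, against 25.5% of all genes tested.

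By medians over the 6 members tested, the spread between libraries was of the size of the genotype differences in Col-0 and smaller in mos2-2. ORE1 had a gap, replicate 2 minus replicate 1 on the log2(FPKM + 1) scale, of -1.62 in mos2-2 and 1.60 in Col-0. HAM1 was level in mos2-2, with a gap of -0.03, and had a gap of -1.29 in Col-0. NAC1 likewise had 0.10 in mos2-2 and 0.63 in Col-0. For the 6 members the median absolute gap was 0.18 in mos2-2 and 0.61 in Col-0, beside 0.30 in mos2-2 and 0.37 in Col-0 over all genes tested. Their median absolute difference between genotypes was 0.51, beside 0.27 over all genes tested. The replicate numbers carry no order, and these gaps only describe the spread.

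**Figure D4:**
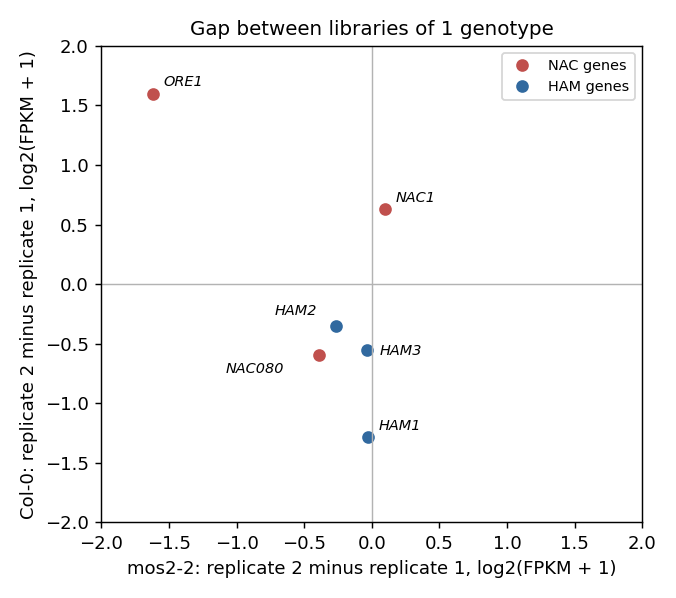
The gap between the libraries of a genotype, replicate 2 minus replicate 1 in log2(FPKM + 1), with mos2-2 on the horizontal and Col-0 on the vertical axis, for the 6 members tested. ORE1 lies at -1.62 and 1.60, far from the other members, and HAM1 at -0.03 and -1.29.

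Because scaling between libraries cancels in shares, the make-up of each family was also described. ORE1 supplied 77.0% and 50.6% of the summed FPKM of the 6 NAC genes in mos2-2 and 31.8% and 56.3% in Col-0. The NAC sum itself was 46.3 and 21.6 FPKM in mos2-2 and 15.6 and 30.3 FPKM in Col-0, while without ORE1 it was 10.6 and 10.7 FPKM in mos2-2 and 10.7 and 13.3 FPKM in Col-0. Without ORE1 the NAC sum was nearly level in 3 of the 4 libraries and highest in Col-0 replicate 2. HAM3 supplied 33.5% and 35.4% of the HAM sum in mos2-2 and 17.7% and 21.3% in Col-0, without overlap. HAM1 supplied 32.4% and 34.6% in mos2-2 and 56.1% and 40.7% in Col-0, also without overlap. These shares are parts of a single sum, so a lower share of HAM1 raises the others. The level of HAM3 itself overlapped between genotypes. In mos2-2 the 3 HAM genes contributed nearly equal parts. The shares are a description and were not tested.

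**Figure D5:**
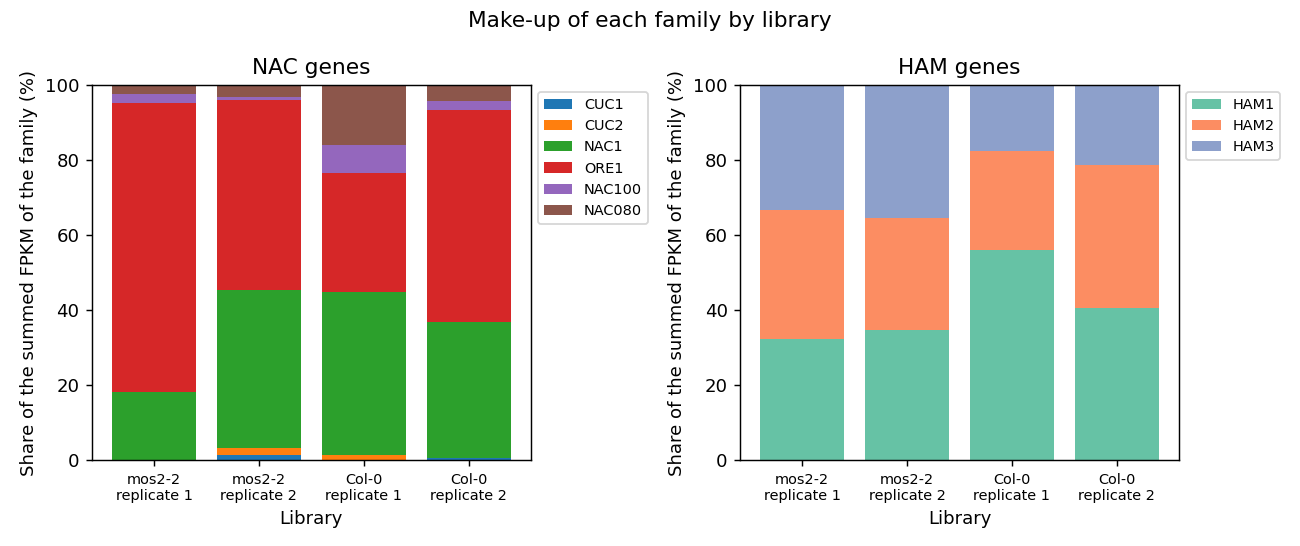
Share of each gene in the summed FPKM of its family, in percent, for the NAC genes (left) and the HAM genes (right) in each library. HAM3 takes 33.5% and 35.4% in mos2-2 and 17.7% and 21.3% in Col-0, and ORE1 ranges from 31.8% in Col-0 replicate 1 to 77.0% in mos2-2 replicate 1.

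Precursor transcripts of the regulating microRNAs were mostly listed at 0. This held in all 4 libraries for MIR164a, MIR164c, MIR170, MIR171a and MIR171c. MIR164b stood at 36.9 and 23.7 FPKM in mos2-2 and was listed at 0 and stood at 37.1 FPKM in Col-0. MIR171b was above 0 only in mos2-2 replicate 2, at 28.6 FPKM. Precursor loci are short, so that few reads give a high FPKM, and neither passed in limma (adjusted p 0.811 for MIR164b and 0.795 for MIR171b). Mature microRNAs were not measured in these libraries.

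Genes that work with the members were read from the same fit, and none of the 44 tested of 61 listed passed the threshold, 22 higher and 22 lower. Among 6 tested boundary and meristem genes, 4 were lower, as were 11434 of all 19236 genes tested. Their median log2 difference was -0.45, beside -0.09 over all genes tested. LSH3, a nuclear gene induced by CUC1, stood at 0.871 and 2.02 FPKM in mos2-2 and 4.45 and 4.38 FPKM in Col-0, and its log2 difference of -1.19 (SE 0.35) had an unadjusted limma p of 0.0196 and an adjusted p of 0.649. STM, the meristem homeobox gene, was low in mos2-2 replicate 1 alone, at 3.52 FPKM, against 11.7 to 13.3 FPKM in the other libraries. KNAT6, a related homeobox gene of the boundary, stood at 1.74 and 4.31 FPKM in mos2-2 and 6.21 and 3.47 FPKM in Col-0, and BOP2, a regulator of leaf bases, at 2.93 and 3.32 FPKM in mos2-2 and 3.08 and 5.46 FPKM in Col-0. Both overlapped between genotypes. LOB and LSH4, the remaining tested genes of this list, overlapped too, with log2 differences of 0.27 for LOB and 0.05 for LSH4. LSH4 stood at 20.9 and 23.3 FPKM in mos2-2 and 16.9 and 27.0 FPKM in Col-0, well above the level of LSH3.

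Around ORE1, 14 of 16 genes of ethylene signalling and leaf ageing were tested, 9 higher and 5 lower, with a median log2 difference of 0.09. Over all 19236 genes tested, 7802 were higher and the median was -0.09. EIN3, the ethylene transcription factor that acts upstream of miR164 and ORE1, stood at 59.6 and 48.0 FPKM in mos2-2 and 66.5 and 74.5 FPKM in Col-0. Its homologue EIL1 was higher in mos2-2 without overlap, beside 13.1% of all genes tested. EIL1 stood at 69.8 and 49.8 FPKM in mos2-2 and 42.8 and 45.3 FPKM in Col-0. Neither EIN3 nor EIL1 passed. ORS1, a close relative of ORE1 that also promotes leaf ageing, stood at 11.1 and 13.4 FPKM in mos2-2 and 4.14 and 17.3 FPKM in Col-0. SAG13, a gene used as a marker of leaf ageing, stood at 12.6 and 4.65 FPKM in mos2-2 and 8.48 and 20.1 FPKM in Col-0. Both overlapped between genotypes, with log2 differences of 0.44 for ORS1 and -0.69 for SAG13. SAG13 was at -0.06 without mos2-2 replicate 2 and at -1.32 without mos2-2 replicate 1.

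Around the HAM genes, the GRAS genes SCR and SHR of root patterning and SCL3 of gibberellin signalling were lower, as were 11434 of all 19236 genes tested, with log2 differences from -0.60 to -0.26 and adjusted p values of at least 0.795 in limma. CLV1, a receptor kinase of the shoot meristem, stood at 9.53 and 11.1 FPKM in mos2-2 and 13.3 and 19.2 FPKM in Col-0, and WOX4, a cambium homeobox gene whose protein binds HAM4, at 5.81 and 4.50 FPKM in mos2-2 and 4.17 and 4.38 FPKM in Col-0. PORC, a protochlorophyllide reductase gene repressed by HAM proteins, was at 194 and 176 FPKM in mos2-2 and at 87.9 and 96.8 FPKM in Col-0. Its log2 difference of 0.99 (SE 0.26) had an unadjusted limma p of 0.0129 and an adjusted p of 0.633. The related reductase genes PORA and PORB overlapped between genotypes, with log2 differences of 0.42 for PORA and -0.17 for PORB. Of the 5 DELLA genes, which are GRAS repressors of gibberellin responses, GAI, RGA and RGL3 were lower without overlap, beside 24.7% of all genes tested, with log2 differences of -0.54, -0.55 and -0.72. RGL1 overlapped between genotypes, with a difference of -0.30, RGL2 was under 1 FPKM and overlapped too, and none of the 4 tested passed. Around NAC1, the auxin receptor gene TIR1, the ubiquitin ligase gene SINAT5 and the protease gene AIR3 overlapped between genotypes, with log2 differences between -0.30 and 0.18.

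Of 6 core genes of microRNA biogenesis and action, MOS2 had the largest difference, -4.08 (SE 0.31), with a limma adjusted p of 0.0727. DCL1, which cuts the precursors, stood at 9.66 and 8.04 FPKM in mos2-2 and 5.25 and 4.53 FPKM in Col-0 (adjusted p 0.677). SE, a partner of DCL1 in processing, stood at 20.7 and 19.2 FPKM in mos2-2 and 19.0 and 14.2 FPKM in Col-0, with an adjusted p of 0.843 in limma. AGO1, the slicer, stood at 31.4 and 28.8 FPKM in mos2-2 and 41.5 and 30.7 FPKM in Col-0.

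Genes most like the mean pattern of each family's tested members over the 4 libraries were sought among 14155 genes that averaged 5 FPKM or more. Likeness was measured as Euclidean distance between centred log2(FPKM + 1) profiles. The 3 tested NAC genes differed in pattern: in Col-0 replicate 1, ORE1 was at its lowest and NAC080 at its highest. Nearest to the mean profile of the 3 tested NAC genes were WEB1, APK2A and AT2G01440, at distances of 0.0387, 0.0568 and 0.0735. Nearest to that of the HAM genes were AT3G57990, AT1G47278 and CRK40, at 0.0284, 0.0360 and 0.0403. With only 4 libraries such likeness is common: 1306 genes lay within 0.5 of the NAC profile and 3489 within 0.5 of the HAM profile.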

How the data were processed

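Poly(A)-selected RNA was sequenced with an Illumina GAIIx instrument, as the labels' protocols state. The authors deposited 1 FPKM value per locus and library, made with TopHat and Cuffdiff on TAIR10, per the submitters' processing notes. Their versions, gene annotation, strand setting and handling of multiple matches: not given in the sources used here. Gene models, lengths and sequences came from RefSeq's TAIR10.1, in which 32810 loci were found.

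FPKM values were not rescaled. The limma package (3.58.1, R 4.3.3) was applied to log2(FPKM + 1), which understates changes of low genes, for genes averaging 1 FPKM or more. Genotype was the only term, with a mean-variance trend, two-sided tests, 2 residual and 2.84 prior degrees of freedom. The fit was also run on simulated data with independent noise for each gene and library. Those data hold no differences shared by a whole library, so the run does not speak to them. Folds are ratios of mean FPKM. Read numbers were estimated from transcript length. Sites were ungapped matches in annotated transcripts. Members and gene lists were chosen with earlier results of these data known. Values are given for up to 4 genes of each list by smallest unadjusted p, all precursors and family members outside the chosen set. The 3 genes nearest each family's profile are given too. RGL1, RGL2, PORA, PORB, LOB and LSH4 were added after their values were seen. Alternatives changed the pseudocount, filter, scaling, trend, genes tested, replicate block and libraries.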

Additional observations from a re-analysis of the deposited data

How the results depend on the processing

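No member passed the limma threshold under any of the 12 alternatives, and the lowest adjusted p of a tested member was 0.508, for HAM1 with the replicate block. Of 71 member differences recomputed, 67 kept their sign. NAC1 turned to -0.000158 with a pseudocount of 5 and ran from -0.305 to 0.324 with 1 library left out, and HAM3 ran from -0.0453 to 0.505, NAC080 from -0.874 to -0.28 and HAM2 from -0.627 to -0.274. Over all genes 12 passed. The count was 4 with a pseudocount of 5, 4 with no filter, 7 when the trend was dropped, and 0 for nuclear genes from 300 nt upward. It was 0 in each fit that left out 1 library, which has a lone library whose spread is taken from the other genotype. The share of HAM1 in its family in mos2-2 was 35.3% by estimated reads, against 33.5% by FPKM.

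Replicate numbers are shared between genotypes as numbers only. Across genes, the deviations of libraries with the same number had a correlation of 0.211. In the fit with a replicate block, 6 genes passed and no member did. With no filter, CUC1, CUC2 and NAC100 had limma adjusted p values of 0.922, 0.925 and 0.84. Quantile normalization put the median difference over all genes at 0.013, against -0.091 as deposited, and the 6 tested members then ran from -0.827 for HAM1 to 1.1 for ORE1 with no change of sign. With 1 library left out, MIR164b ran from -0.317 to 4.93, BOP2 from -0.648 to 0.0144, ORS1 from -0.474 to 1.36, TIR1 from -0.0798 to 0.449, SINAT5 from -0.906 to 0.3 and AIR3 from -0.163 to 0.299. All 9 sites also stood at a limit of 3 mismatches in place of 5. A promoter motif search was not run. The causes of these changes were not tested. Depth limits CUC1 and CUC2, which had at most 3.68 estimated reads in a library.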
